A study of Mus musculus with 2 samples.

Results

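The genes described here are Apoe and 6 genes that act with it in moving lipid between cells: Vldlr, Lrp1, Lrp8, Abca1, Abcg1 and Lpl. They were taken by symbol from the rows of 1 expression matrix, 7 rows of 32285, and all 7 were present. The matrix came from SeekSpace, a method that sequences the RNA of single nuclei of a tissue section and gives each nucleus a position on a chip. The labels describe a 10 µm cryosection of fresh-frozen retina from 1 eye, named T1, from mice on a C57BL/6J background that were given no treatment. The study set mice heterozygous for the Prph2 allele C213Y against wild types matched for age and sex, with spatial data at 6 months, but it leaves T1 without a genotype or a replicate label. No genotype comparison was therefore made, and each value below describes 1 library with no replicates.

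Apolipoprotein E is the main protein of the lipid particles that glia and other support cells release in neural tissue. Abca1 and Abcg1 are membrane transporters that load such particles with cholesterol and phospholipid, and both are targets of the liver X receptors, which sense oxidised cholesterol. Vldlr, Lrp1 and Lrp8 (also called ApoER2) are members of the LDL receptor family and bind Apoe at the cell surface; Vldlr and Lrp8 also bind reelin. Lpl, lipoprotein lipase, is made by fat and muscle cells and is carried to the capillary wall, where it splits the triglyceride of circulating particles. In the retina, the pigment epithelium (RPE) and Müller glia are known sources of Apoe, and loss of Vldlr in mice leads to abnormal vessels under the photoreceptors.

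The genes lie apart on 6 chromosomes, with coordinates that RefSeq gives on GRCm38.p6, the build behind the name mm10. Apoe spans chr7:19696244-19701310, Vldlr chr19:27216480-27254231 and Lrp1 chr10:127538157-127621148. Lrp8 spans chr4:107802200-107876840 and Abca1 chr4:53030789-53159988. Abcg1 spans chr17:31057694-31117984 and Lpl chr8:68880555-68906932. Upstream windows were available for 5 of the 7 genes, not for Abcg1 and Lpl. The 250 bases before a transcription start are printed for 3 genes with different leading classes: Apoe (RPE and glia), Vldlr (photoreceptors) and Abca1 (fat and myeloid cells). The Apoe window is chr7:19699189-19699438 on the minus strand, the Vldlr window chr19:27216234-27216483 on the plus strand, and the Abca1 window chr4:53159896-53160145 on the minus strand. Apoe has 3 windows and Vldlr 2, of which 1 each is printed, and the Apoe window lies inside the span given above. Each printed window reads 5′ to 3′ toward its transcription start, and capitals mark matches to the motifs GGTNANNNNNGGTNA and TAATCC on either strand.
Apoe: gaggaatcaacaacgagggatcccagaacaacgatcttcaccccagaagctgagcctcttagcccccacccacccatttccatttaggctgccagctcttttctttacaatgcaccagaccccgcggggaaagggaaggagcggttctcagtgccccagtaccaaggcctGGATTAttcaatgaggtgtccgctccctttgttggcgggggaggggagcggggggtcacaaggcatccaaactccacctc
Vldlr: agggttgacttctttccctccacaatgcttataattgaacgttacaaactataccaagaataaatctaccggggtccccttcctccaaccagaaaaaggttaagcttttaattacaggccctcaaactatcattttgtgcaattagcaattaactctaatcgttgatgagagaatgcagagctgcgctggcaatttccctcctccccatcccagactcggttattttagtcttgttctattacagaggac
Abca1: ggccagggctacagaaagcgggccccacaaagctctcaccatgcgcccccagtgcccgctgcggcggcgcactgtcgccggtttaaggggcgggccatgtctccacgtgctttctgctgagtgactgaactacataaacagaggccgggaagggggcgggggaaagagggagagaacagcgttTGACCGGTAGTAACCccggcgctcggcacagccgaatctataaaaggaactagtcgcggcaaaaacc
The repeat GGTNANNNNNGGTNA, spelled after the site that liver X receptors bind, stood at bases -67 to -53 of Abca1, on the strand opposite to the one printed, as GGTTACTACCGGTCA. It was found in 0.621% of all 32851 upstream windows and in 1 of the 10 windows of these genes. TAATCC, the core recognised by the photoreceptor factors CRX and OTX2, stood at bases -80 to -75 of the printed Apoe window, again on the opposite strand. It was found in 1 of the 10 windows of these genes and in 6.25% of all windows. CACGTG, an E-box, was in the Abca1 window at -147 to -142 and in 6.02% of all windows. AGGTCA, a nuclear receptor half-site, was in 1 Lrp8 window and in 14.0% of all windows. These are matches of letters, not measured binding.

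The matrix held 17285 barcodes and 55843593 UMIs, counts of single RNA molecules, with a chip position for each barcode. The filters kept 16867 nuclei of 355 to 291939 UMIs, whose medians were 1811 UMIs and 1042 genes. Clustering gave 39 clusters, named only from marker lists, so that "RPE-like" means a cluster raised in the RPE list. Of these, 32 fell into 16 classes, and 7 clusters with 2271 nuclei (13.5%) stayed unnamed. The section held more than retina: muscle-like, adipocyte-like, lens-like, fibroblast-like and melanocyte-like classes were present. Positions formed 4 separate pieces of tissue of 4406, 4196, 3695 and 4570 nuclei, which the labels do not mention. The pieces serve here as a spread, not as replicates. Levels are given as CPM, a gene's UMIs per 1000000 UMIs summed over a class, with exact Poisson 95% intervals that cover counting error only. The doublet caller marked 0 nuclei, so nuclei of mixed identity remain.

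None of the 7 genes met the rule for a class-high gene, under which the interval of the top class must begin at 2 times or more of where any other class's interval ends. The same rule called 2059 of 18123 measured genes (11.4%). The median ratio of the highest class to the next was 1.38 over the 7 genes and 1.34 over all measured genes. Their highest classes were RPE-like for Apoe and Lrp8, adipocyte-like for Abca1 and Lpl, cone-like for Vldlr, fibroblast-like for Lrp1 and rod-like for Abcg1. Among the neural and glial classes of the retina, without RPE, the leading class differed by gene. Müller-like nuclei led for Apoe and Lrp1, cone-like nuclei for Vldlr and rod-like nuclei for Abcg1. Amacrine-like nuclei led for Lrp8 and Lpl, and horizontal-like nuclei for Abca1 (145 CPM).

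**Figure D1:**
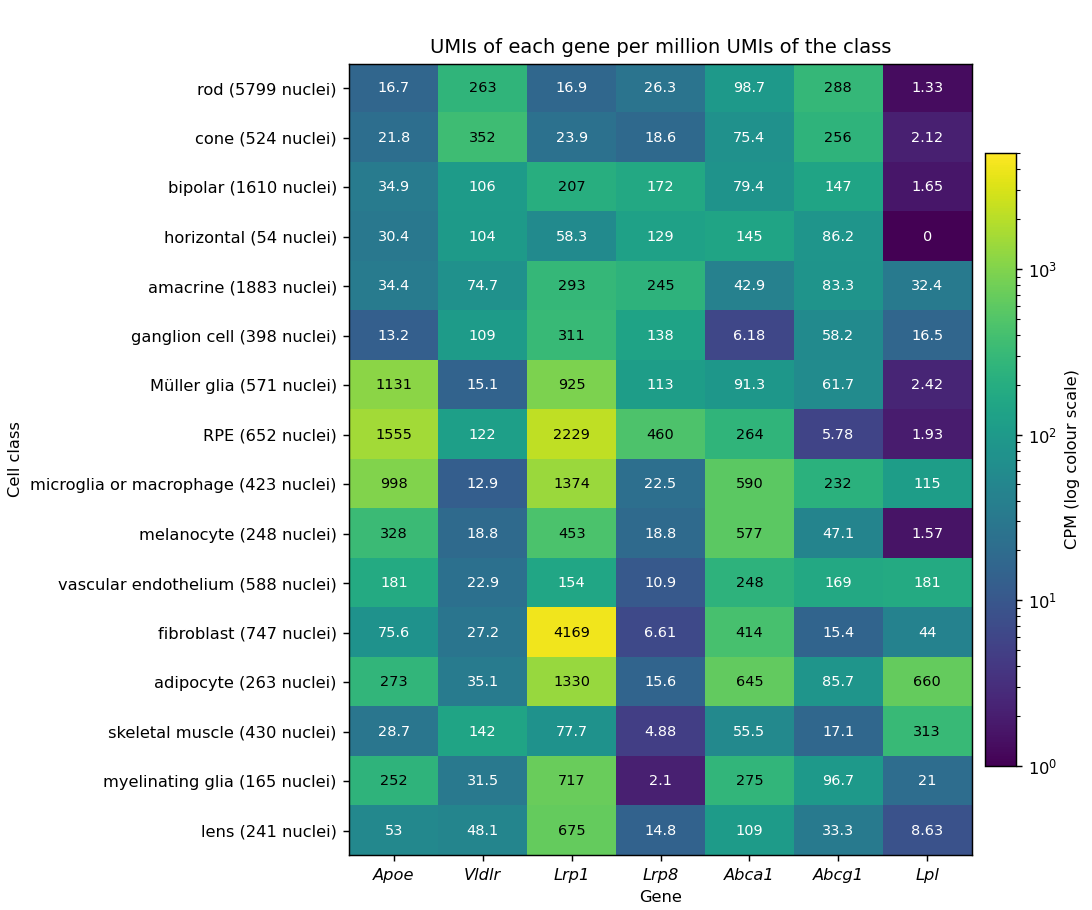
CPM of the 7 genes (columns) in the 16 named classes (rows, with nuclei per class), coloured on a log scale with the CPM printed in each cell. Apoe is high in RPE, Müller glia and microglia or macrophage rows, Vldlr and Abcg1 in rods and cones, and Lpl in adipocytes and skeletal muscle; colours compare classes for 1 gene, not genes with each other.

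Apoe, the ligand, was highest in RPE-like nuclei, at 1555 CPM (interval 1515 to 1596). Pieces 1 to 4 gave 1893, 1463, 1676 and 1215 CPM. Müller-like nuclei followed at 1131 CPM (1080.2 to 1183), with 974, 1319, 1210 and 1047 CPM by piece. RPE-like nuclei were above Müller-like nuclei in 4 of 4 pieces, and the 2 intervals did not overlap. Microglia- or macrophage-like nuclei, the immune cells of the tissue, came next at 998 CPM (935 to 1064), with 953, 768, 1193 and 1109 CPM by piece. They lay below Müller-like nuclei in 3 of 4 pieces. Genes for immunoglobulin chains, Igkc and Igha, were among the 10 leading genes of that class, beside Cd74, Mrc1 and Ptprc.

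A second tier of Apoe lay outside the retina. Melanocyte-like nuclei had 328 CPM, adipocyte-like nuclei 273, myelinating glia-like nuclei 252 and endothelium-like nuclei 181. The intervals of the first 3 overlapped from one to the next, so their order is not settled by counting error. Pieces differed widely in melanocyte-like nuclei, with 506, 339.6, 201 and 137 CPM. The 6 retinal neuron classes were all low, from 13.2 CPM in ganglion cell-like to 34.9 CPM in bipolar-like nuclei. Rod-like nuclei had 16.7 CPM (14.0 to 19.7) and cone-like nuclei 21.8 CPM (15.6 to 29.5), intervals that overlapped.

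An Apoe UMI was present in 84.2% of RPE-like nuclei (exact binomial interval 81.2 to 86.9%) and 84.9% of Müller-like nuclei (81.7 to 87.8%). In rod-like nuclei the share was 2.24% (1.88 to 2.66%). Depths differed, with medians of 2987, 2983 and 1061 UMIs. Thinned to 500 UMIs per nucleus, which left out 669 shallower nuclei, the shares were 47.0%, 42.2% and 1.02%. Microglia- or macrophage-like nuclei reached 46.3% before thinning and 27.6% after it, at a median depth of 1679 UMIs. Barcodes with under 200 genes, which were not kept, had 135 CPM of Apoe (88.8 to 196). That level is above those of the neuron classes and below those of RPE-like, Müller-like and microglia- or macrophage-like nuclei. Its interval overlapped that of endothelium-like nuclei (156 to 209 CPM).

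Apoe UMIs were unevenly spread over the nuclei of the RPE-like class. The 66 nuclei with most Apoe, of 652, carried 57.9% of its Apoe UMIs. In Müller-like nuclei the top 58 of 571 carried 28.1%. These are shares of raw UMIs, to which deep nuclei give more, and the part of depth in them was not tested. The class joined 2 clusters. Cluster 10, of shallow nuclei (291 nuclei, median 988 UMIs), had 2283 CPM (2142 to 2431), and cluster 11, of deep nuclei (361 nuclei, median 5671 UMIs), had 1458 CPM (1416 to 1500). Cluster 10 was above cluster 11 in each piece: 2519 against 1811, 2512 against 1330.3, 2297 against 1632 and 2035 against 1042 CPM. Without nuclei over 20000 UMIs, a limit set after seeing the data, cluster 11 had 1162 CPM and the whole class 1359. Summed markers of the RPE list were 32147 CPM in cluster 10 and 29128 in cluster 11, and those of the melanocyte list 1129 and 2161. Markers of the Müller list, the other class rich in Apoe, summed to 5919 and 4191 CPM, and those of the rod list to 2103 and 701. The part of depth and of these other markers in the Apoe difference was not tested.

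Vldlr, the receptor for very low density lipoprotein, was highest in photoreceptor-like nuclei. Cone-like nuclei had 352 CPM (326 to 380), with 382, 300.1, 388 and 376 CPM in pieces 1 to 4. Rod-like nuclei had 263 CPM (252 to 274), with 259.6, 243, 238 and 299 by piece. Cone-like nuclei were above rod-like nuclei in 4 of 4 pieces and the intervals did not overlap. The cone-like class also carried 19414 CPM of summed rod markers beside 16568 CPM of cone markers, while the rod-like class had 29802 and 2127. The part of this rod RNA in the cone-like levels of Vldlr and of the other genes was not tested. Skeletal muscle-like nuclei came next at 142 CPM (130.3 to 155) and RPE-like nuclei at 122 (111 to 134). From there to ganglion cell-like (109), bipolar-like (106) and horizontal-like nuclei (104), intervals overlapped between neighbours. Amacrine-like nuclei had 74.7 CPM. The classes richest in Apoe after RPE were the poorest in this receptor, with 15.1 CPM in Müller-like and 12.9 CPM in microglia- or macrophage-like nuclei.

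A Vldlr UMI was found in 59.5% of cone-like nuclei at a median depth of 2418 UMIs and in 26.6% of rod-like nuclei at 1061. Thinned to 500 UMIs the shares were 20.1% and 11.8%, against 0.759% in microglia- or macrophage-like nuclei, whose median depth was 1679. In quartiles of distance to the nearest RPE-like nucleus, from near to far, rod-like nuclei had 265, 264, 254 and 268 CPM, with intervals that all overlapped. A long non-coding gene on the other strand, Gm35438, covers all of Vldlr. No source used here states the strand setting of the counts, so reads of the 2 genes cannot be told apart where they share exons. Of the 2 features with that symbol, the larger had 11.62 CPM in rod-like and 12.2 CPM in cone-like nuclei, far below Vldlr.

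Lrp1, a large endocytic receptor that clears Apoe particles and many other ligands, was the gene of stromal and support cells. Fibroblast-like nuclei had 4169 CPM (4061 to 4278), and the pieces gave 3698, 4295, 2483 and 4828. RPE-like nuclei followed at 2229 CPM (2180 to 2278), with 2382, 1923, 2169 and 2380.4 by piece. Microglia- or macrophage-like nuclei had 1374 CPM and adipocyte-like nuclei 1330, with overlapping intervals. Müller-like nuclei had 925 CPM (879.6 to 973), with 830.4, 1067, 894 and 942 by piece. Inner retinal neurons were lower, at 311 CPM in ganglion cell-like, 293 in amacrine-like, 207 in bipolar-like and 58.3 in horizontal-like nuclei.

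Photoreceptors stood at the bottom for Lrp1. Cone-like nuclei had 23.9 CPM (17.4 to 32.0) and rod-like nuclei 16.9 (14.2 to 19.99). Barcodes under 200 genes, which were not kept, had 474 CPM (384 to 579.8). The ganglion cell-like, amacrine-like, bipolar-like, horizontal-like and photoreceptor levels all lay below that of these barcodes. So did the endothelium-like (154 CPM) and skeletal muscle-like (77.7 CPM) levels, and the melanocyte-like interval (403 to 509 CPM) overlapped theirs. An Lrp1 UMI was in 88.4% of fibroblast-like nuclei at a median depth of 1512 UMIs and in 2.09% of rod-like nuclei at 1061. Between cone-like and Müller-like nuclei the receptors ran opposite ways: Vldlr was 352 CPM in cone-like and 15.1 CPM in Müller-like nuclei, and Lrp1 was 23.9 and 925 CPM. RPE-like nuclei held both. Non-coding genes also lie within Lrp1, Gm16217 and Gm51820. Gm16217 reached 3.58 CPM in RPE-like nuclei and had 0 UMIs in fibroblast-like nuclei.

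Lrp8, which carries both reelin and Apoe signals in neurons, was highest in RPE-like nuclei at 459.6 CPM (438 to 482). The pieces gave 394, 521, 489.7 and 441 CPM. Amacrine-like nuclei had 245 CPM (236 to 256) with 236, 249, 242 and 262 by piece, a narrow spread. Bipolar-like nuclei had 172 CPM, ganglion cell-like 138, horizontal-like 129 and Müller-like 113, and the intervals of the last 3 overlapped between neighbours. Rod-like nuclei had 26.3 CPM and cone-like nuclei 18.6. Myelinating glia-like nuclei had 1 UMI, or 2.10 CPM (0.0532 to 11.7). In the 2 RPE-like clusters the order was opposite to that of Apoe, with 303 CPM (253 to 360) in cluster 10 and 481 CPM (457 to 505) in cluster 11, and cluster 11 was the higher in 4 of 4 pieces. An Lrp8 UMI was in 57.8% of RPE-like nuclei (median depth 2987) and 52.9% of amacrine-like nuclei (4683), against 0.937% of fibroblast-like nuclei (1512). Lrp8os2, a non-coding gene on the other strand of Lrp8, had at most 4.40 CPM in the bipolar-like, amacrine-like, RPE-like, ganglion cell-like, rod-like, cone-like and fibroblast-like classes.

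Lrp8 varied widely among the bipolar-like and amacrine-like clusters. Bipolar-like cluster 27, led by Trpm1 and Prkca, markers of rod bipolar cells, had 52.8 CPM (42.3 to 65.0). Cluster 34, led by Grik1, a kainate receptor gene of cone OFF bipolar cells, had 376 CPM (327 to 431). By piece cluster 27 gave 60.1, 59.4, 60.3 and 31.1 CPM and cluster 34 gave 336, 335, 438 and 384, so that each piece of cluster 27 lay below each piece of cluster 34. Of the amacrine-like clusters, cluster 33 had 40.8 CPM (25.6 to 61.8) and cluster 37 had 477 (439 to 518). Cluster 37 had 426, 565, 430.3 and 518 CPM in pieces 1 to 4.

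**Figure D2:**
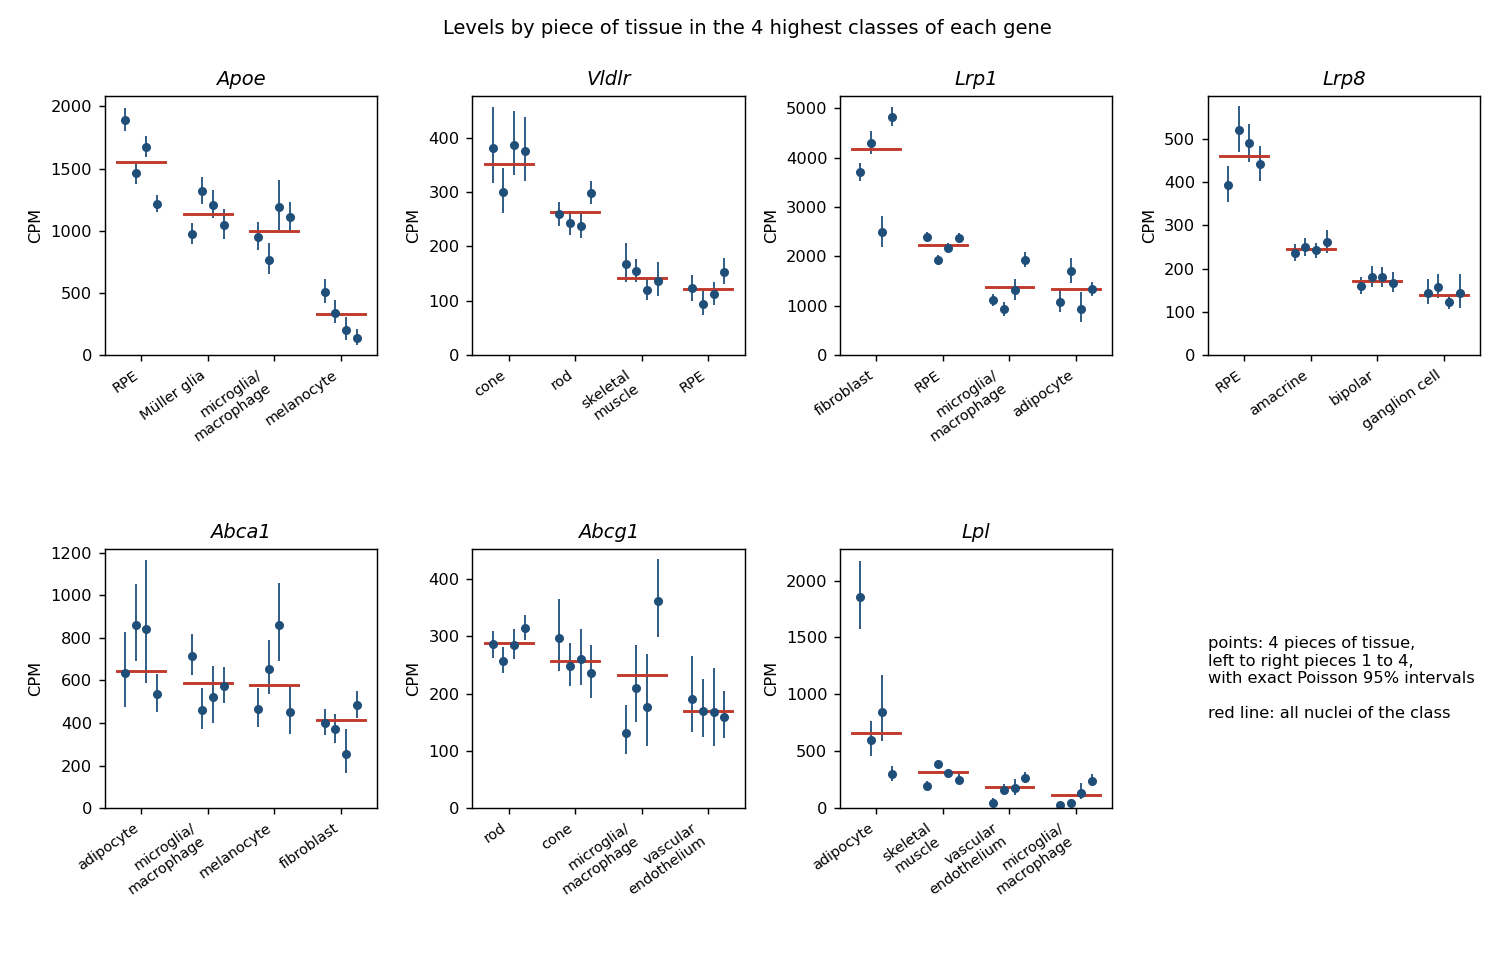
CPM of each gene in its 4 highest classes, with 1 point per piece of tissue (pieces 1 to 4 from left to right), exact Poisson 95% intervals as bars, and a red line at the level of the whole class. Amacrine Lrp8 sits between 236 and 262 CPM in all pieces, while adipocyte Lpl runs from 299.9 to 1852 CPM.

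Abca1, the transporter that starts a lipoprotein particle, was led by 3 classes that counting error did not separate. Adipocyte-like nuclei had 645 CPM (577 to 718), microglia- or macrophage-like nuclei 590.0 (542 to 641) and melanocyte-like nuclei 577 (519.8 to 639). By piece, adipocyte-like nuclei gave 633, 860.4, 843 and 536 CPM, microglia- or macrophage-like nuclei 716, 461, 521 and 575, and melanocyte-like nuclei 465, 655, 862 and 452. No class led in all pieces, and without piece 2 the highest class was microglia- or macrophage-like. Fibroblast-like nuclei had 414 CPM, and myelinating glia-like (275), RPE-like (264) and endothelium-like nuclei (248) overlapped between neighbours.

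In the retina Abca1 was lower. Horizontal-like nuclei had 145 CPM (109 to 187). Rod-like nuclei had 98.7 CPM (92.1 to 106), Müller-like nuclei 91.3, bipolar-like 79.4 and cone-like 75.4, each overlapping the next. Ganglion cell-like nuclei were lowest of the 16 classes at 6.18 CPM (3.82 to 9.44). An Abca1 UMI was in 55.5% of adipocyte-like nuclei at a median depth of 1619 UMIs, and in 4.27% of ganglion cell-like nuclei at 8149.5. Rod-like nuclei in the quartile nearest to RPE-like nuclei had 120.4 CPM (106 to 136), and the other quartiles 85.3, 94.5 and 94.2. The intervals of the last 2 overlapped that of the nearest, and the 4 pieces of rod-like nuclei ranged from 68.8 to 138 CPM.

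Abca1 ran against Lrp8 among bipolar clusters. Cluster 27 had 160.1 CPM (141 to 180.5), with 191, 172, 119 and 162 by piece. In cluster 34 a single UMI gave 1.78 CPM (0.0452 to 9.94), and 3 of its 4 pieces were at 0. The other bipolar-like clusters had 30.1, 56.3 and 71.7 CPM. In amacrine-like clusters both genes were instead high together. Cluster 37 had 189 CPM of Abca1 (166 to 215), while the next amacrine-like cluster had 30.2 CPM. Its pieces gave 174, 144, 225 and 228 CPM.

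Abcg1, which adds cholesterol to formed particles, had a pattern unlike that of Abca1. Rod-like nuclei had 288 CPM (276 to 299), with 286, 258, 285 and 315 by piece. Cone-like nuclei had 256 CPM (234 to 280.2) and microglia- or macrophage-like nuclei 232 (202 to 265), and each of these intervals overlapped the next. The pieces of microglia- or macrophage-like nuclei ranged from 132 to 362 CPM, while those of cone-like nuclei ranged from 236 to 298. Endothelium-like nuclei had 169 CPM and bipolar-like nuclei 147, again overlapping.

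RPE-like nuclei, the class richest in Apoe, had the lowest Abcg1, at 5.78 CPM (3.58 to 8.83). Only 2.30% of them had an Abcg1 UMI, at a median depth of 2987 UMIs, against 28.4% of rod-like nuclei at 1061. The 4 pieces of RPE-like nuclei lay between 1.34 and 9.03 CPM. Fibroblast-like nuclei (15.4 CPM) and skeletal muscle-like nuclei (17.1 CPM) were next. RPE-like nuclei were thus last of the 16 classes for Abcg1, whereas for Abca1 they ranked 6.

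Lpl, the lipase, had its highest levels in classes of the tissue around the eye. Adipocyte-like nuclei had 660.3 CPM (592 to 734), skeletal muscle-like nuclei 313 (296 to 332) and endothelium-like nuclei 181 (156 to 209), with no overlap. The pieces of adipocyte-like nuclei gave 1852, 599, 843 and 299.9 CPM, from 32, 53, 25 and 153 nuclei. Without piece 1 the class had 428 CPM, and without piece 4 it had 1093. Without piece 2 or without piece 4, Lpl met the class-high rule. The summed adipocyte markers of the same nuclei were 7275, 8482, 5900.3 and 9044 CPM by piece, so piece 4 had the most marker RNA and the least Lpl. The 27 adipocyte-like nuclei with most Lpl, of 263, carried 64.9% of its UMIs, a share of raw UMIs not set against depth.

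Muscle-like nuclei gave 192, 389, 308 and 251 CPM of Lpl by piece. Although lower in level than fat, they supplied 48.5% of all Lpl UMIs of kept nuclei, and adipocyte-like nuclei 14.2%. Rod-like nuclei had 1.33 CPM (0.664 to 2.38) and horizontal-like nuclei 0 UMIs, which allows up to 7.61 CPM (3 counts over the class). An Lpl UMI was in 57.9% of muscle-like nuclei at a median depth of 3378.5 UMIs and in 0.190% of rod-like nuclei at 1061. Barcodes with under 200 genes, which were not kept, had 69.9 CPM of Lpl (38.2 to 117). Microglia- or macrophage-like nuclei had 115 CPM (94.1 to 139), an interval that overlapped it, in 31 of 423 nuclei. Their pieces gave 23.1, 41.0, 134 and 241 CPM, and without piece 4 the class had 50.2 CPM. Their summed adipocyte markers were 181, 51.2, 126 and 114 CPM by piece, with Adipoq, Plin1 and 6 other of the 12 markers at 0. Their summed muscle markers were 132, 92.2, 118 and 232 CPM, highest in piece 4 as Lpl was, and their part in the Lpl level was not tested.

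Endothelium-like nuclei formed 2 clusters that differed in Lpl, a gene held out of clustering. Cluster 17 (218 nuclei) had 529 CPM (453 to 614) and cluster 24 (370 nuclei) had 13.3 (6.06 to 25.2). The pieces of cluster 17 gave 207, 469.6, 426 and 619 CPM, the first from 2 UMIs, and those of cluster 24 gave 34.5, 0, 0 and 12.99. Cluster 17 was rich in Cd36, a fatty acid transporter, at 1247 CPM and in Gpihbp1, the protein that anchors Lpl to capillary endothelium, at 241 CPM. Cluster 24 had 16.2 and 11.8 CPM of these genes, and instead held Vwf at 2778 CPM and Plvap at 1440.3. Markers of other cells moved with Lpl: cluster 17 had 2314 CPM of summed muscle markers and 997 CPM of adipocyte markers, with Adipoq at 39.7 CPM, against 133 and 86.9 CPM in cluster 24. Their part in the Lpl level of cluster 17 was not tested.

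Among neurons Lpl was highest in 1 cluster. Amacrine-like cluster 37 (245 nuclei), led by Tnc, Adarb2, Cpne5, Npnt and Cxcl14, had 145 CPM (124 to 168). Its pieces gave 140.1, 169, 152 and 96.8 CPM. The other 5 amacrine-like clusters had between 1.23 and 26.4 CPM, and no interval reached that of cluster 37. Ganglion cell-like nuclei had 16.5 CPM (12.4 to 21.4). The barcodes that were not kept had 69.9 CPM, above that level and below that of cluster 37. In cluster 37 the adipocyte markers summed to 3.29 CPM with 10 of 12 at 0. Its muscle markers summed to 45.3 CPM, against 71.3 CPM in cluster 36, and their part in its Lpl level was not tested. Cluster 37 was thus the amacrine-like cluster with the highest Lrp8, Abca1 and Lpl, and also had 123 CPM of Vldlr (104 to 145), where cluster 33 had 119 (91.4 to 152).

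**Figure D3:**
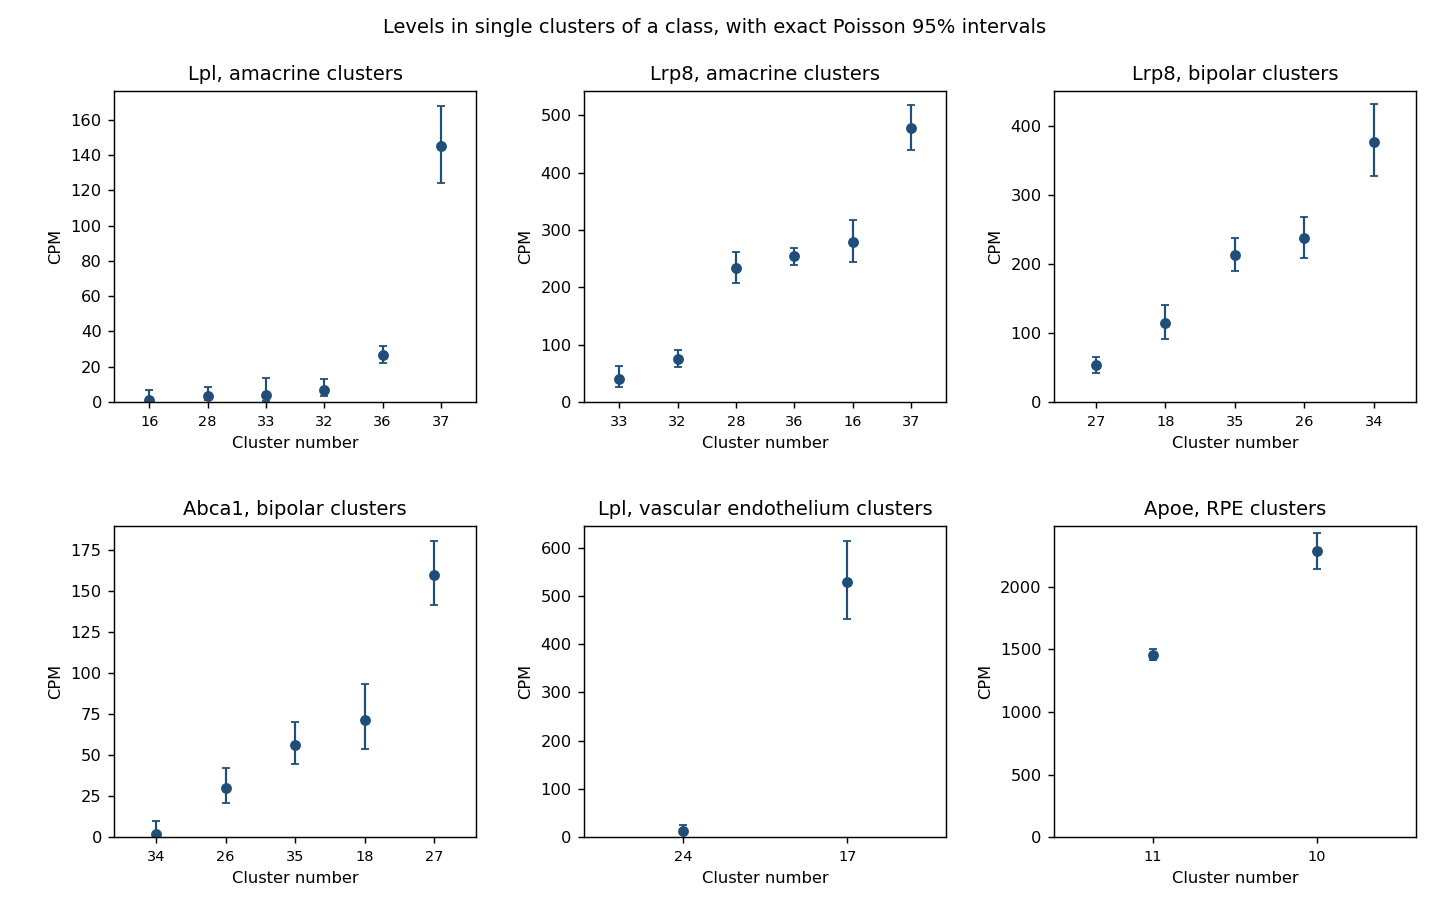
CPM in the single clusters of a class (points, ordered by level) with exact Poisson 95% intervals. Lpl stands at 145 CPM in amacrine cluster 37 and 529 CPM in endothelial cluster 17, Lrp8 and Abca1 run in opposite order over the bipolar clusters, and Apoe is higher in RPE cluster 10 than in cluster 11.

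Nuclei of the 7 unnamed clusters supplied between 5.03% (Lpl) and 22.6% (Lrp1) of the UMIs of each gene. Cluster 7 (168 nuclei), led by Gfap and raised in 6 of 7 astrocyte markers, had 1103 CPM of Apoe (1010.3 to 1203). Its pieces gave 1644, 909.7, 1404 and 158 CPM, the last from 12 UMIs. Its summed markers were 5529 CPM for the Müller list, 2543 for the melanocyte list and 1634 for the astrocyte list, and their part in its Apoe was not tested. Cluster 6 (815 nuclei), with fibroblast and pericyte markers, had 2219.7 CPM of Lrp1 and 402 CPM of Abca1. Cluster 2 (281 nuclei), with pericyte and endothelial markers, had 818 CPM of Lrp1 and 272 of Apoe. Cluster 19 (353 nuclei) carried bipolar and Müller markers at once, had a median of 8170 UMIs and held Apoe at 327 CPM, between the bipolar-like and Müller-like levels.

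**Figure D4:**
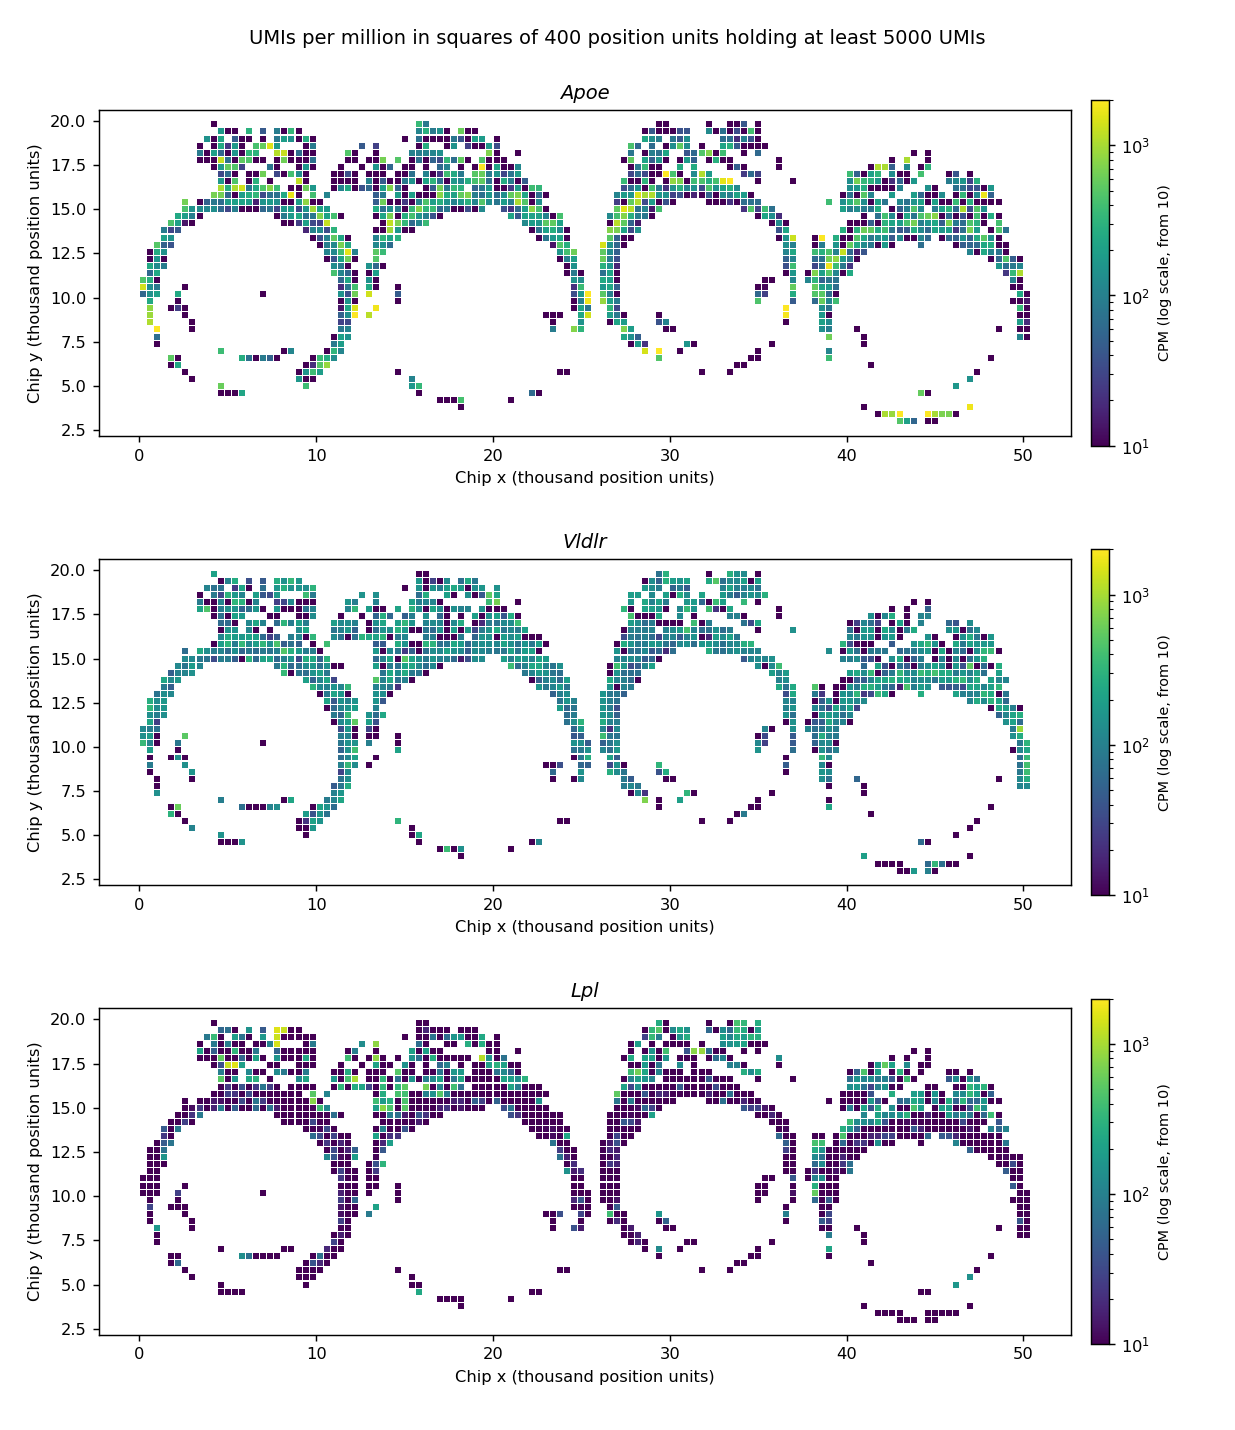
Maps of Apoe, Vldlr and Lpl over the chip in squares of 400 position units that held at least 5000 UMIs (1332 squares), coloured by CPM on a log scale from 10 CPM. An Apoe UMI was in 69.4% of squares, a Vldlr UMI in 79.7% and an Lpl UMI in 40.7%; Lpl squares lie mostly outside the 4 rings and Vldlr squares along them.

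Position was set against a circle fitted to the RPE-like nuclei of each piece, a step added after seeing the data. Medians inside the circle were 698 position units for ganglion cell-like, 471 for amacrine-like, 336 for Müller-like, 276 for bipolar-like and 71.0 for rod-like nuclei, which is the order of the retinal layers. The split is coarse, since 39.0% of rod-like nuclei lay outside the circle. Microglia- or macrophage-like nuclei on the retinal side (87 nuclei, within 1200 units) had 731 CPM of Apoe (627 to 846). Those on the outer side (335 nuclei) had 1094 CPM (1017 to 1175). Their Lrp1 was 1366 and 1378 CPM, and their Abca1 524 and 614. Markers differed too, with P2ry12, a microglial gene, at 144 CPM on the retinal side and 65.4 outside, and Mrc1, a macrophage gene, at 330.2 and 1005.

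Endothelium-like nuclei had 60.9 CPM of Apoe (27.8 to 116) on the retinal side (69 nuclei) and 202 (173 to 234) outside (518 nuclei). Lpl was 6.76 CPM there, from 1 UMI (0.171 to 37.7), and 211 CPM (181 to 244) outside. Abcg1 went the other way, at 277 CPM (199 to 376) on the retinal side and 150.4 (126 to 179) outside. The clusters were unevenly placed: cluster 17 had 2 nuclei on the retinal side and 216 outside, and cluster 24 had 67 and 302. Within cluster 24 Apoe was 62.1 CPM (28.4 to 118) on the retinal side and 225 (187 to 269) outside. Its Abcg1 was 283 (203 to 384) and 182 (147 to 222), with overlapping intervals, and its Lpl was 0 UMIs and 16.9 CPM. In Müller-like nuclei Apoe was 1117 CPM on the retinal side and 1171 outside, with overlapping intervals. By distance to the nearest RPE-like nucleus, the quartiles of Müller-like nuclei had 1178, 1059.8, 1081 and 1193 CPM.

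The 7 genes were set beside 97 other genes of lipid transport in 7 lists. Of these, 82 were measured with at least 20 UMIs and 13 were class-high (15.9%), against 11.4% of all measured genes. Carriers had 0 of 7 class-high genes. Clu, another apolipoprotein of neural tissue, was highest in RPE-like nuclei at 3532 CPM. Apod peaked at 1681 CPM in myelinating glia-like nuclei. Apoc1 and Apoc2, neighbours of Apoe in the genome, had 16 and 9 UMIs over the 16 classes and were not measured.

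Among other receptors 4 of 19 were class-high. Lrp2 (megalin), an endocytic receptor, was RPE-high at 437 CPM, with 137 in cone-like nuclei, and Lrp11 was high in horizontal-like nuclei at 254 CPM. Msr1, a scavenger receptor, and Trem2, a myeloid receptor that binds Apoe, were high in microglia- or macrophage-like nuclei, at 55.8 and 104 CPM. Of the ligands and adaptors 2 of 9 were class-high, among them Dab2, an endocytic adaptor, in microglia- or macrophage-like nuclei (599 CPM). Reelin and its adaptor, which act with Vldlr and Lrp8, were broad: Reln reached 1185 CPM in the myelinating glia-like class, its highest, and Dab1 reached 2147 CPM in amacrine-like nuclei.

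In the export list 1 of 15 was class-high, Abca8a in Müller-like nuclei at 1867 CPM. Npc1, Lipa and Soat1, genes of lysosomal and stored cholesterol, were highest in microglia- or macrophage-like nuclei. Of the sensors 1 of 10 was class-high, Insig2 in melanocyte-like nuclei at 136 CPM; Nr1h3, which encodes liver X receptor alpha, was highest in adipocyte-like nuclei at 89.6 CPM. Sterol synthesis had 0 of 14 class-high genes. Of these 14 genes, 6 were led by ganglion cell-like and 4 by amacrine-like nuclei, with a median ratio to the next class of 1.11. Over all measured genes these classes led 6.17% and 4.08%. Of the lipases and their partners 5 of 8 were class-high. They were Lipe (1554 CPM) and Pnpla2 (508 CPM) in adipocyte-like, Gpihbp1 (86.5 CPM) in endothelium-like, Lipg (39.9 CPM) in Müller-like and Mgll (3330.4 CPM) in melanocyte-like nuclei.

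Likeness across the 16 classes was measured as Pearson's r of log2(CPM + 10) over 13566 genes, as a description of classes that share 1 library. The gene most like Apoe was Mertk, the receptor with which RPE cells engulf outer segments and itself an RPE marker here, at r = 0.956. Rab20, Gm2a, Acsf2 and Tlr3 followed. For Vldlr the nearest were 6430571L13Rik (r = 0.928), Gm14827, Gm35438, Apoo and Pkm, and Gm35438 is the gene that overlaps it. Lrp1 was nearest to Rnd3 (r = 0.880), Fgfr1, Mir99ahg, Idua and Rrbp1, and Lrp8 to Gm44167 (r = 0.931), Caskin1, Abhd8, Tbx5 and Atp2b2. Abca1 was nearest to Lrp6 (r = 0.895), Tcn2, Rab22a, Mrpl24 and Zadh2. Abcg1 was nearest to 3110056K07Rik (r = 0.902), Riok3, Dyrk1a, Cnot6l and Rapgef5, and Lpl to Trim16 (r = 0.890), Cd36, Sun2, Pnpla2 and Eif4ebp1. With log2(CPM + 1) 22 of the 35 genes stayed among the nearest 5. Between the genes themselves, r was 0.676 for Apoe with Lrp1 and -0.657 for Apoe with Vldlr, and -0.0317 for Abca1 with Abcg1.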

How the data were processed

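The authors deposited raw UMI counts per gene and barcode, whole numbers per the file headers, and a position table in other units of unstated length. Per the submitters' processing notes, the tools were fastp, STAR and Seurat 4.1.1, on build mm10. The role of each tool, the annotation, the strand setting and intron counting were not stated in these sources. Nuclei with at least 200 genes and under 10% mitochondrial UMIs were kept. With scanpy 1.11.5 in python 3.11.15, counts were scaled to 10000, and 2000 variable genes, 30 components, 15 neighbours and Leiden resolution 1 gave clusters. The 7 genes and other list genes that are no markers (19 of the variable genes) were held out. A cluster was named when at least 3 of its markers were raised, by at least 2 on the log2 scale, the second list scored at most 0.7 of the best, and no other list held more of its 10 leading genes; 0.7 was set after seeing the data. Pieces are the 4 largest connected groups at 400 units, and 671 nuclei outside them were given to the piece of the nearest nucleus. The genes and lists were chosen with earlier results of these data known. Named genes are the 7, up to 4 class-high genes per list by ratio to the next class, and the 5 most alike per gene; other genes named in the text (Clu, Apod, Reln, Dab1, Nr1h3, Npc1, Lipa, Soat1, Apoc1, Apoc2, Mgll and the cluster markers) were chosen after their values were seen. Fewer than 20 UMIs counts as not measured. Scrublet marked 0 nuclei, which allows up to 0.0178% (3 counts), under the 0.5% taken as a sign that it worked, and doublets stay. Gm42418 took 7.81% of UMIs. Cetp was not among the features by that symbol. A result for 1 listed gene is not reported here. The class-high rule was tested on simulated counts with Poisson error only, a test that does not cover the spread over pieces or RNA of other classes. No p-value was computed. Symbols were matched to RefSeq's GRCm38.p6 tables, which held 7 of 7 genes and windows of 5.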

Additional observations from a re-analysis of the deposited data

How the results depend on the processing

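No paired analysis was possible because T1 is a single section without group labels. The highest class of each of the 7 genes was recomputed in 103 values, and it changed in 1, Abca1 without piece 2. Vldlr is left out of these values where no cluster was named cone-like. Its highest class there was necessarily another, which was not counted as a change. Over all 10 results and 18 settings, 103 of 136 values stayed within the Poisson interval of the main level or, for counts, within 1.5 times the count. Leaving out each piece in turn gave 1449 to 1688 CPM for Apoe in RPE-like nuclei, 341 to 382 for Vldlr in cone-like, 3779 to 4386 for Lrp1 in fibroblast-like, 444 to 480 for Lrp8 in RPE-like, 588 to 776 for Abca1 in adipocyte-like, 276 to 298 for Abcg1 in rod-like and 428 to 1093 for Lpl in adipocyte-like nuclei, with 0 to 1 class-high gene of the 7 and 10 to 12 class-high pathway genes. Totals without mitochondrial genes and Gm42418 raised Apoe to 1887, Lrp1 to 4879, Lrp8 to 558, Abca1 to 746 and Lpl to 764 CPM, since the denominator is smaller. Thinned to 500 UMIs, Vldlr was 452, Lrp1 3680 and Lpl 544 CPM, with 4 class-high pathway genes of 13. A mean over nuclei gave Apoe 1597, Lrp1 3728 and Lpl 541 CPM. Lrp1 was 3994 at resolution 0.5, 3948 at resolution 2, 3989 with the held-out genes kept for clustering, 4355 without the 5% of highest Scrublet scores and 3165 when clusters were named up to a second score of 0.8. Without nuclei over 20000 UMIs Apoe was 1359 CPM. A ratio of 3 left 7 class-high pathway genes. With log2(CPM + 1), 22 of 35 nearest genes were shared. The causes were not tested. The naming limits of 0.6 and 0.8 and the limit of 20000 UMIs were chosen after seeing the data; at 0.6, and at the planned resolution of 0.5, no cluster was named cone-like, so Vldlr has no value there. Classes of few nuclei (54 horizontal-like and 165 myelinating glia-like nuclei) and the spread over pieces limit precision. Totals per class vary with depth, 1 section has no replicate, and the pieces carry no label, so no value here bears on genotype.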
